A study of Mus musculus with 22 samples.

Results

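Hepatocytes of juvenile mice mutated in Ezh1 and Ezh2, the genes of both methyltransferases of Polycomb repressive complex 2 (PRC2), were compared with hepatocytes of adult wild-type mice. The comparison used 11 of the 22 libraries of the series, chosen by their labels: all 7 mutant libraries of postnatal day 14 (P14; 2 males, 5 females) and all 4 wild-type libraries of 2 months (M2; 2 males, 2 females). The mutants carried the Alb-Cre transgene, which recombines floxed alleles in cells that express the albumin promoter, together with Ezh1-/- and Ezh2f/f, so that, by genotype, Ezh1 was deleted in every cell and Ezh2 only where Alb-Cre acts. The labels call the adult controls wild-type and name no transgene or littermates; these differ from the mutants in age as well as genotype. The 5 P14 wild-type libraries (3 males, 2 females) share the age of the mutants and the genotype of the adults, and their values are set beside both. RNA was polyadenylated and read strand-specifically from cells labelled hepatocytes; Alb, the hepatocyte-defining albumin transcript, stood at 102338 to 172699 CPM (reads of a gene scaled to a fixed library total) in the mutants and 123636 to 143596 CPM in the adults. The question was how far the P14 mutant cells had reached adult levels and which adult genes were still off.

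PRC2 places methyl groups on lysine 27 of histone H3, a mark of silenced genes, through Ezh1 or Ezh2 held in a core with Eed and Suz12. Hepatocytes are born as cells that make blood plasma proteins and, after birth, stop dividing and shut fetal genes. They then gain the adult enzymes of drug, steroid, bile acid and lipid metabolism, many of them only around weaning and puberty. In adult rodents the pulses of growth hormone, which differ between males and females, set a large group of liver genes to male or female levels.

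Total counts ran from 12427095 to 17602199 per library over these 11 libraries, and the ribosomal transcript Rn45s took 6.19% to 32.6% of them, with the highest share in mutant male 1. Mutant male 2 stood apart: it had the highest level of the 7 mutants for many late adult genes, and values without it are given beside many of the differences from adults that it moved. Ezh1 was measured at 0.466 to 1.37 CPM (median 0.878) in the mutants against 7.63 to 10.6 CPM in the adults, a difference (mutant minus adult, here and below) of −3.14 ± 0.23 (log2, SE, adjusted p = 6.16e-09). Ezh2 was at 3.69 to 7.36 CPM (median 5.84) in the mutants and 2.98 to 5.63 CPM in the adults, a difference of 0.23 (log2, 95% interval −0.20 to 0.66) that was not called. In P14 wild-type cells Ezh2 was at 7.22 to 9.99 CPM, and the mutants differed from these by −0.64 ± 0.19 (log2, SE, adjusted p = 0.0231). Counts per gene do not show which exons were read, so this does not check the floxed allele. The other core subunits were lower than in adults, Eed with a difference of −0.91 ± 0.15 (log2, SE, adjusted p = 4.75e-05) and Suz12 with one of −0.42 ± 0.15 (log2, SE, adjusted p = 0.0212). The mutants ranged over 6.63 to 9.74 CPM of Eed and 18.4 to 26.2 CPM of Suz12, and overlapped the P14 wild-type ranges of 8.57 to 12.1 CPM and 17.5 to 33.3 CPM. The Suz12 call was lost when any of 7 single libraries was left out (mutant male 2, mutant females 3 and 5 and each of the adults). The adjusted p is from edgeR's quasi-likelihood test over all genes with Benjamini-Hochberg adjustment, and a gene is called when it is under 0.05.

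Over all genes the P14 mutants were not nearer to the adult profile than P14 wild-type cells were, though they were so in mean, short of the threshold, among abundant genes. Each library's distance from the adult profile was taken as the root mean square log2 CPM difference over the 13493 genes tested. It was 1.26 and 1.19 in mutant males 1 and 2 and 1.40, 1.28, 1.14, 1.27 and 1.24 in mutant females 1 to 5. The P14 wild-type libraries lay between 1.15 and 1.19, and the adult libraries, which make up the profile, between 0.415 and 0.431. The mutants overlapped the P14 wild-type libraries, with 1 mutant female nearer to the adults than any P14 wild-type library and 6 mutants farther than all of them, mutant male 2 by a small margin. The mean distance was 0.0808 higher in mutants (exact permutation test over 792 splits, two-sided p = 0.0455). That order was not stable: among the 5351 genes whose mean log2 CPM was 4 or more the mutants were nearer by 0.0583 (exact permutation p = 0.163), and the p passed 0.05 when any of 11 single libraries was left out, with the largest value 0.103 without P14 wild-type male 2.

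**Figure D1:**
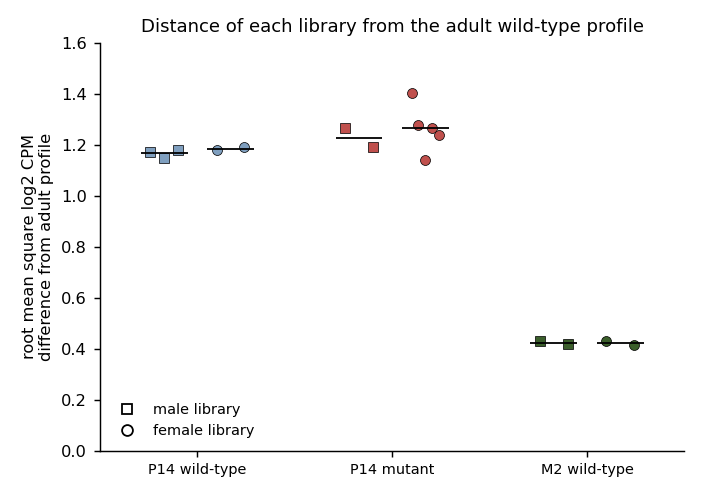
Distance of each library from the adult wild-type profile (y axis: root mean square log2 CPM difference over 13493 genes; x axis: group). Squares are male and circles female libraries, and bars are means by sex; the mutants span 1.14 to 1.40 and the P14 wild-type libraries 1.15 to 1.19, far above the adult libraries at 0.415 to 0.431.

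Between P14 mutants and adults, with the sexes weighted equally, 4216 genes were called higher (31.2% of those tested) and 3406 lower (25.2%). The calls were unequal in size: 2718 (20.1%) were higher by at least 2-fold, whereas 978 (7.25%) were lower by at least 2-fold. For 6254 genes (46.3%) the 95% interval of the difference lay within 2-fold of the adult level either way, which is what is called the adult level here. The median difference over all genes was 0.11 (log2). The median absolute difference was 0.60 for P14 mutants against adults and 0.57 for P14 wild-type cells against the same adult libraries. It was 0.27 for mutants against P14 wild-type cells. In that last comparison 11.8% of genes were called higher and 6.89% lower, and between P14 wild-type cells and adults 26% and 23.9%.

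Median differences are given for each list beside the 0.11 over all genes. In lists of basic liver functions the share of members at the adult level, which a called gene can also be, was above the 46.3% over all genes. It was 18 of 30 tested coagulation and complement genes, 17 of 28 of amino acid catabolism, 10 of 13 of gluconeogenesis and glycogen, 5 of 7 of the urea cycle and 15 of 27 plasma proteins. Of the same lists 6, 7, 2, 1 and 9 members were called higher, and 12, 6, 4, 1 and 7 lower. The 12 lower coagulation and complement genes were 8 without adult female 1, and the 7 lower plasma proteins 4 without mutant male 2, mutant females 1, 4 or 5 or any of the adults, each left out alone. Median differences of these lists lay between −0.10 and 0.17. Fatty acid oxidation, with 12 of 24 members at the adult level, and iron, copper and heme, with 9 of 18, were above 46.3% too. A narrow interval is easier to reach with many counts, and the shares were not matched for abundance. Lists of late adult functions varied. Above the 25.2% over all genes, 27 of 50 cytochrome P450 genes, 33 of 52 conjugation and other phase II genes and 23 of 31 male-biased genes were called lower (medians −0.80, −1.22 and −2.59). Against the same adults, P14 wild-type cells had medians of −1.21, −1.88 and −2.80, with 30, 40 and 28 members called lower. Of 24 genes of fatty acid oxidation 12 were lower and 2 higher (median −0.38), but without mutant male 2 only 7 were lower. Of 19 genes of bile acid synthesis and transport 7 were lower and 3 higher (median −0.41). Of 16 lipogenic genes 6 were lower and 2 higher (median −0.58), and without mutant male 2 it was 9 lower. Lists of fetal and dividing cells were mostly higher, with 23 of 25 tested fetal hepatocyte genes and 25 of 32 cell cycle genes (medians 4.06 and 2.35). Of the 25 fetal genes 6 had no read in any adult library, so they could only have come out higher; with these at their bound the fetal median was 3.58.

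**Figure D2:**
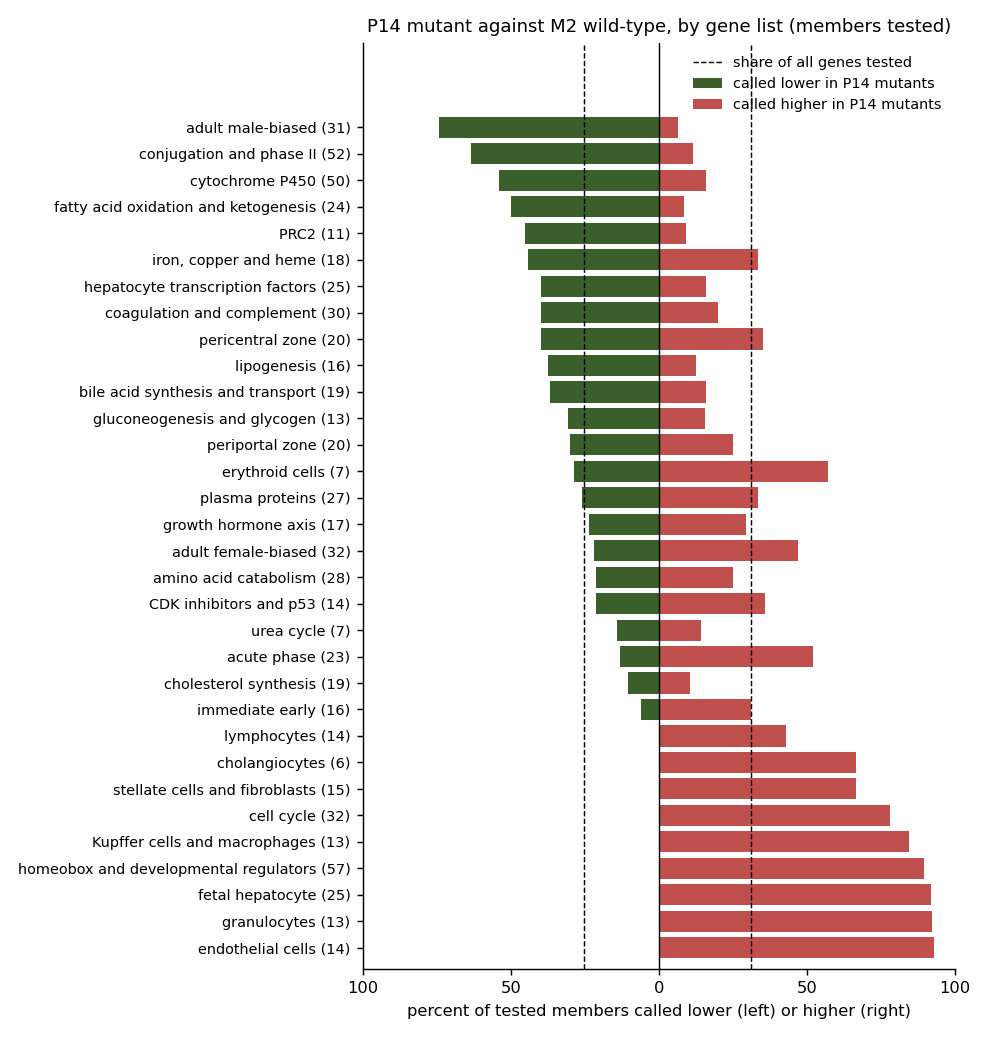
Share of the tested members of each gene list that was called lower (left, green) or higher (right, red) in P14 mutants than in M2 wild-type cells; the number tested is in parentheses. Dashed lines mark the shares over all genes tested, 25.2% lower and 31.2% higher; male-biased, phase II and cytochrome P450 genes reach farthest to the left, and fetal and cell cycle genes and markers of granulocytes, endothelial cells and macrophages to the right. The bar of developmental regulators is not read, since most of these passed the filter through other groups alone.

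The clearest adult genes still off were the major urinary proteins (Mup), small pheromone-binding proteins that adult liver secretes in large amounts, and a few transporters and conjugating enzymes. A gene was taken as off when every adult library of a sex had at least 5 CPM and every P14 mutant library of that sex had under 0.5 CPM. Under this rule 1 gene was off in both sexes (0.00741% of the genes tested), 13 more in males only (0.0963%) and 9 more in females only (0.0667%), out of 7769, 8108 and 8131 genes with at least 5 CPM in the adult libraries of both sexes, of males and of females. Of these 23 genes 11 were Mup genes, all of them on chromosome 4. In P14 wild-type cells 21 of the 23 were also under 0.5 CPM in every library; the other two were Gm3704 (highest 0.887 CPM) and Slc10a2 (highest 0.508 CPM).

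The 250 bases upstream of 4 of these and related genes are shown because the Mup genes and Slco1a1, which lie on different chromosomes, were at or near 0 together. They are RefSeq sequences of GRCm38.p6, 5′ to 3′ on the gene's strand, which is the minus strand for all 4: chr4:60582156-60582405 for Mup10, chr4:62087318-62087567 for Mup3, chr4:62150842-62151091 for Mup21 and chr6:141946963-141947212 for Slco1a1. Capitals mark the letters TATAAG on the gene's strand, a sequence chosen after reading these windows. Of the 32851 RefSeq promoter windows of the same length 4.01% hold it on that strand and 6.65% on either strand.
Mup10: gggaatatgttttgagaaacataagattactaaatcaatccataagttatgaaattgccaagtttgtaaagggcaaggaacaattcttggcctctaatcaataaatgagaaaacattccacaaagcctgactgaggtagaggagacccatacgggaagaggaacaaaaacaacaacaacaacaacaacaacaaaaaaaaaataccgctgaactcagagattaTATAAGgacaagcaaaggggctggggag
Mup3: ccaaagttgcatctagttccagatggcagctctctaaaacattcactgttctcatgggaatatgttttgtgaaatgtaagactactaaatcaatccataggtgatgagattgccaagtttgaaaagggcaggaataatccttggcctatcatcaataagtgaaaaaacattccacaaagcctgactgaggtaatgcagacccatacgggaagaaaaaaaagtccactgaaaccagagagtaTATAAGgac
Mup21: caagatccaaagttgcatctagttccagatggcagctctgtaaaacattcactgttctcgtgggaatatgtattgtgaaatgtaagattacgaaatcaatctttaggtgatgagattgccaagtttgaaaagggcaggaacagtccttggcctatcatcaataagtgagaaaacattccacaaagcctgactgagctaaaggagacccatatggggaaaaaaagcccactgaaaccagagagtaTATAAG
Slco1a1: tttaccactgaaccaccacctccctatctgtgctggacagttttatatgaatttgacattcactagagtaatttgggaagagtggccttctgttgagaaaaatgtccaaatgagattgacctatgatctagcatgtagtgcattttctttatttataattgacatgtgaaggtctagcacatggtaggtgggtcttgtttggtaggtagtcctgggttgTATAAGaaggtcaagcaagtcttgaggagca
The longest run of identical letters was 29 bases between Mup10 and Mup3, 30 between Mup10 and Mup21 and 37 between Mup3 and Mup21, whereas Slco1a1 shared at most 9 with any of them. The palindrome TTCNNNGAA, the consensus bound by the growth hormone effector STAT5, was in none of the 4 windows and in 7.02% of all windows on either strand. This says only that those letters are not in these 250 bases. RefSeq windows were at hand for 15 of the 23 genes.

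Mup transcripts summed to 27190 and 26845 CPM in the adult males and to 4446 and 3265 CPM in the adult females over 20 Mup genes. In the P14 mutants the sum was 2.00 and 42.0 CPM in males 1 and 2 and 1.14, 2.09, 8.78, 2.28 and 1.90 CPM in females 1 to 5, next to 1.35 to 4.91 CPM in P14 wild-type cells. Every mutant was far below every adult, and mutant male 2 and mutant female 3 were above all the P14 wild-type libraries. Mup genes are near-identical copies, so how the reads were divided among them is uncertain, whereas the sum does not depend on that division. How reads that match several copies were treated is not given in the sources used here. Mup16, off in both sexes, was measured at 0 to 0.464 CPM (median 0) in the mutants against 208 and 163 CPM in the adult males and 19.9 and 21.6 CPM in the adult females. Mup7, a male gene of the family, was at 0 to 0.293 CPM (median 0.123) in the mutants and 2427 and 2281 CPM in the adult males, but only 1.92 and 1.80 CPM in the adult females. Mup14 had no read in any mutant and 135 and 145 CPM in the adult males, which is at least 1147-fold higher than the floor of 3 counts over the mutant males. Mup3, the member with the most reads, was at 0.784 to 22.7 CPM (median 1.23) in the mutants against 14915 and 14742 CPM in the adult males and 3907 and 2782 CPM in the adult females. Mup20, which encodes the male pheromone darcin, was at 0 to 3.25 CPM (median 0.430) against 5383 and 6109.8 CPM in the adult males and 61.7 and 99.2 CPM in the adult females. The highest mutant for Mup3, Mup16 and Mup20 was male 2 in each case.

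Slco1a1, an organic anion uptake transporter of the hepatocyte membrane, was at 0.210 and 5.04 CPM in the mutant males and 0.143, 0.184, 0.176, 0.466 and 0.262 CPM in the mutant females. The adults had 1052 and 866 CPM in males and 148 and 72.6 CPM in females, so all 7 mutants were below all 4 adults, and mutant male 2 was the 1 mutant above 0.5 CPM. Sult3a1, a sulfotransferase of adult females, had no read in any mutant female and 70.4 and 114 CPM in the adult females, at least 2519-fold above the floor of 3 counts over the 5 mutant females. Serpina4-ps1, a serpin pseudogene, was at 0 to 1.06 CPM (median 0) in the mutants against 169 and 213 CPM in the adult males and 17.8 and 39.9 CPM in the adult females. Ugt2b38, a glucuronosyltransferase of adult males, reached at most 0.464 CPM in the mutants and 28.4 and 30.9 CPM in the adult males. Slc10a2, the apical bile acid transporter of bile duct cells and ileum, was off in the mutant females, at 0.143 to 0.363 CPM against 11.3 and 17.02 CPM, but mutant male 2 had 3.78 CPM.

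The threshold divided a continuous series. Just inside it lay Slco1a1 in females (highest mutant 0.466 CPM) and Ugt2b38 in males (0.464 CPM). Just outside lay Mup17 in females (0.518 CPM) and Mup21 and Hsd3b5 in males (0.531 CPM each). Hsd3b5, a steroid dehydrogenase of adult male liver, was at 0.210 and 0.531 CPM in the mutant males and 0, 0.0615, 0.0586, 0.155 and 0.131 CPM in the mutant females against 269 and 258 CPM in the adult males. P14 wild-type cells had more, 1.21 to 3.56 CPM with a difference of mutants from them of −3.41 ± 0.53 (log2, SE, adjusted p = 9.53e-05). Cyp2c38, a P450 of both sexes, was at 0.285 to 1.53 CPM (median 0.518) in the mutants against 32.6 and 49.9 CPM in the adult males and 159.5 and 169.7 CPM in the adult females. The difference was −6.54 ± 0.44 (log2, SE, adjusted p = 1.89e-09), and without mutant male 2 it was −7.17 (adjusted p = 6.96e-08). The number of off genes hung on mutant male 2: without it 7 genes were off in both sexes, 29 more in males and 3 more in females, and all 23 stayed among those 39.

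**Figure D3:**
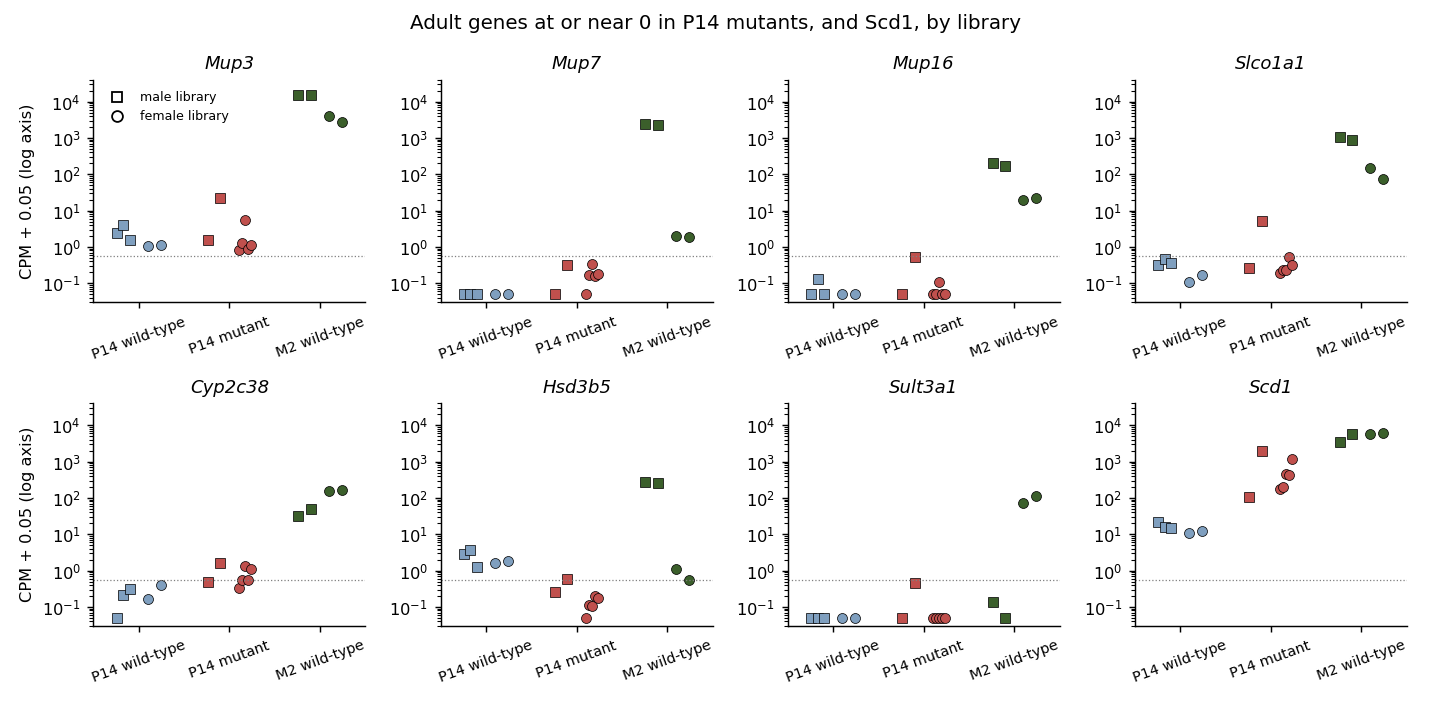
CPM + 0.05 on a log axis for 7 adult genes at or near 0 in P14 mutants, and for Scd1, in each library (squares male, circles female; the dotted line is the 0.5 CPM threshold). The mutants sit with the P14 wild-type libraries near the bottom and the adults far above, except for the genes of 1 adult sex, and mutant male 2 is the highest square among mutants; Scd1 is intermediate in mutants.

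Much of the liver's core output was at the adult level in P14 mutants, and it was at that level in P14 wild-type cells too. Alb was at 105% of the adult mean in mutants and 139% in P14 wild-type cells, with a difference of mutants from adults of 0.06 (log2, 95% interval −0.34 to 0.45). Fgb, a fibrinogen chain, was at 3346 to 9097 CPM (median 4033) against 4823 and 5005 CPM in the adult males and 5156 and 5317 CPM in the adult females, with a difference of 0.02 (log2, 95% interval −0.37 to 0.42). Cps1, the entry enzyme of the urea cycle, was at 7037 to 10002 CPM (median 8596) against 5498 to 9176 CPM (log2 difference 0.23, 95% interval −0.14 to 0.60). Pck1 and G6pc, the first committed and the last enzyme of gluconeogenesis, were at 88.7% and 91.4% of the adult means. Slc27a5, which activates bile acids for conjugation, was at 103% (log2 difference 0.05, 95% interval −0.30 to 0.39), and the P450 Cyp2a12 at 80.7% (log2 difference −0.30, 95% interval −0.70 to 0.09). Rxra, the partner of many hepatic nuclear receptors, was at 246 to 337 CPM (median 298) against 235 to 262 CPM (log2 difference 0.18, 95% interval −0.07 to 0.43). Dgat2, an enzyme of triglyceride assembly, was at 92.8%, and the carboxylesterase Ces1c at 79.7%. For each of these genes the mutant and adult ranges overlapped and the interval stayed within 2-fold of the adult level under every alternative run.

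A smaller set was at the adult level in the mutants and lower in P14 wild-type cells. Gstm1, a glutathione transferase, was at 559.7 to 1328 CPM (median 827) in the mutants and 1146 and 1004 CPM in the adult males and 845 and 931 CPM in the adult females, a difference of −0.14 (log2, 95% interval −0.62 to 0.34). P14 wild-type cells had 157 to 281 CPM, below every mutant and every adult and lower than the mutants, whose difference from them was 2.11 ± 0.23 (log2, SE, adjusted p = 2.66e-06). Hpd, an enzyme of tyrosine breakdown, was at 1634 to 2644 CPM (median 2225) in mutants, 2091 to 2183 CPM in adults and 1076 to 1534 CPM in P14 wild-type cells (log2 difference 0.74 ± 0.17 SE, adjusted p = 0.00519 for mutants against P14 wild-type cells). Cyp1a2, a pericentral P450 that oxidises caffeine, was at 94.7% of the adult mean in mutants and 52.4% in P14 wild-type cells (log2 difference 0.86 ± 0.27 SE, adjusted p = 0.0323 between them), but mutant females 1 and 2, at 247 and 215 CPM, were as low as the P14 wild-type libraries. These comparisons share the mutant or the adult libraries, so they are not independent of each other.

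**Figure D4:**
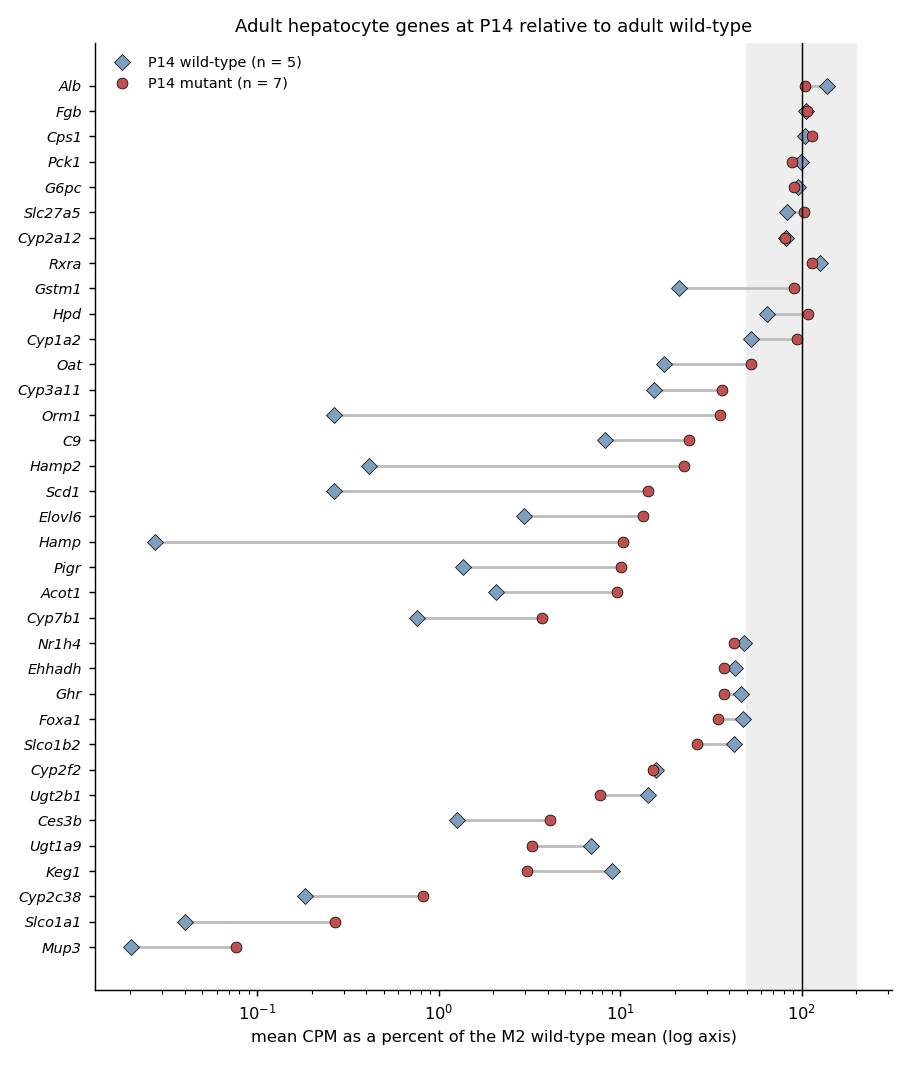
Mean CPM of 35 hepatocyte genes at P14 as a percent of the M2 wild-type mean (log axis; sexes weighted equally), in P14 wild-type cells (blue diamonds) and P14 mutants (red circles); the grey band spans 2-fold either way. From the top, genes at the adult level in both, genes raised in mutants to or towards it, and genes lower than adult in both; Gstm1 is at 21.0% in P14 wild-type cells and 90.4% in mutants, Mup3 at 0.0202% and 0.0769%.

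A further group lay above P14 wild-type cells and below adults. Hamp, the iron hormone hepcidin, was at 3.26 and 346 CPM in the mutant males and 3.63, 1.66, 17.6, 11.4 and 23.0 CPM in the mutant females against 742 to 1076 CPM in adults and 0 to 0.762 CPM in P14 wild-type cells. Its difference from the adults was −4.33 ± 0.79 (log2, SE, adjusted p = 0.000168) and −7.18 (adjusted p = 3.26e-06) without mutant male 2. From P14 wild-type cells it was 7.79 ± 1.14 (log2, SE, adjusted p = 6.19e-05). Mutant male 2 was highest, and all 7 mutants lay between the 2 wild-type ages. Scd1, which introduces the double bond of monounsaturated fatty acids, was at 108 and 1954 CPM in the mutant males and 174, 205, 448, 430.4 and 1216 CPM in the mutant females. The adults had 3516 and 5777 CPM in males and 5917 and 6191 CPM in females and P14 wild-type cells 10.6 to 21.3 CPM, so the 3 groups did not overlap. The difference from adults was −2.89 ± 0.61 (log2, SE, adjusted p = 0.00058), or −4.50 (adjusted p = 4.46e-05) without mutant male 2. That from P14 wild-type cells was 5.67 ± 0.72 (log2, SE, adjusted p = 1.31e-05). Elovl6, the elongase that works with it, was at 4.49 to 68.3 CPM (median 26.8) against 113 to 311 CPM in adults and 4.61 to 8.30 CPM in P14 wild-type cells, and mutant male 1 and mutant females 1 and 2 were no higher than P14 wild-type cells. Its difference from adults was −2.82 ± 0.56 (log2, SE, adjusted p = 0.000323), or −4.20 (adjusted p = 5.69e-05) without mutant male 2. Orm1, the acute phase protein orosomucoid, was at 51.7 to 718 CPM (median 124) against 737 to 829.2 CPM in adults and 0.817 to 3.73 CPM in P14 wild-type cells, again without overlap. Its difference from adults was −1.69 ± 0.45 (log2, SE, adjusted p = 0.00359), or −2.59 (adjusted p = 0.000347) without mutant male 2. From P14 wild-type cells it was 6.86 ± 0.61 (log2, SE, adjusted p = 1.74e-07). Hamp and Orm1 each have a close copy in the genome, so their counts are uncertain to that extent.

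For 6 more genes of this kind the difference from P14 wild-type cells was called too, at 2.78 for Pigr, 1.56 for C9, 1.59 for Oat, 2.33 for Cyp7b1, 2.21 for Acot1 and 1.26 for Cyp3a11 (log2). Pigr, the receptor that carries immunoglobulin A into bile, was at 66.6 to 334 CPM (median 137) in mutants against 1383 and 1129 CPM in the adult males and 2215 and 2214 CPM in the adult females. P14 wild-type cells had 19.3 to 28.8 CPM. Its difference from adults was −2.38 ± 0.38 (log2, SE, adjusted p = 0.000148) in males and −4.35 ± 0.29 (log2, SE, adjusted p = 6.44e-09) in females, and these differed from each other (adjusted p = 0.044). Without mutant male 2 the male difference was −3.01, and the difference between the sexes was not called (adjusted p = 0.364). C9, the last complement component, was at 97.0 to 188 CPM (median 152), or 24.0% of the adult mean against 8.30% in P14 wild-type cells (log2 difference −1.90 ± 0.22 SE, adjusted p = 1.11e-06 against adults). Oat, a pericentral enzyme of ornithine breakdown, was at 158 to 294 CPM (median 221) with 360.5 to 469 CPM in adults and 64.1 to 79.3 CPM in P14 wild-type cells (log2 difference −0.93 ± 0.18 SE, adjusted p = 0.000259 against adults). Cyp7b1, which hydroxylates oxysterols, was at 2.35 to 11.8 CPM (median 6.15) against 410.4 and 319.8 CPM in the adult males and 30.6 and 25.6 CPM in the adult females. The mutants were below both adult sexes (log2 difference −3.79 ± 0.42 SE, adjusted p = 7.37e-07) and above the P14 wild-type range of 0.887 to 2.30 CPM. Acot1, an acyl-CoA thioesterase, was at 9.66% of the adult mean against 2.08% in P14 wild-type cells (log2 difference −3.34 ± 0.34 SE, adjusted p = 2.66e-07 against adults). Cyp3a11, a main drug-metabolising P450, was at 2213 to 5479 CPM (median 4777) against 17459 and 15886 CPM in the adult males and 6283 and 8770.4 CPM in the adult females (log2 difference −1.34 ± 0.26 SE, adjusted p = 0.000301). P14 wild-type cells had 1519 to 3031 CPM of Cyp3a11, and mutant females 1 and 2, at 3014 and 2213 CPM, were within that range. Of the 19 tested genes of cholesterol synthesis 2 were called higher and 2 lower, where 31.2% and 25.2% of all genes were. Their median difference from adults was 0.49 (log2) in mutants and −1.24 in P14 wild-type cells. The mutant median was 0.93 without mutant male 1 and −0.57 without mutant male 2. With limma-voom or a replicate block the median was −0.20 or −0.30, so that the list had no stable direction against adults. Against P14 wild-type cells 15 of the 19 were called higher in mutants and 0 lower, where 11.8% and 6.89% of all genes were (median 1.94). The list summed to 890 to 4835 CPM in mutants and 1086 to 1474 CPM in P14 wild-type cells, so these ranges overlapped.

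Many adult genes were lower in mutants than in adults and no higher than in P14 wild-type cells by the test, and several were lower than in both. Cyp2f2, the periportal P450, was at 88.0 to 433 CPM (median 139) against 1027 to 1844 CPM in adults (log2 difference −2.78 ± 0.36 SE, adjusted p = 5.04e-06), and P14 wild-type cells, at 156 to 302 CPM, overlapped them. Ugt1a9, a glucuronosyltransferase whose gene shares exons with its neighbours, was at 0.586 to 4.64 CPM (median 1.66) against 62.8 to 91.0 CPM in adults and 4.40 to 7.03 CPM in P14 wild-type cells. Its difference was −4.92 ± 0.33 (log2, SE, adjusted p = 1.89e-09) from adults and −1.06 ± 0.30 (log2, SE, adjusted p = 0.0188) from P14 wild-type cells. Keg1, an acyltransferase-like enzyme of liver and kidney, was at 3.09% of the adult mean in mutants and 9.06% in P14 wild-type cells, a difference between these of −1.59 ± 0.25 (log2, SE, adjusted p = 0.000159), with no overlap between the 3 groups. Ugt2b1, another glucuronosyltransferase, stood at 7.79% in mutants and 14.3% in P14 wild-type cells, a difference of −0.86 ± 0.24 (log2, SE, adjusted p = 0.0166). Ces3b, a carboxylesterase, was at 0.878 to 60.4 CPM (median 3.89) against 258 to 600.3 CPM (log2 difference −5.39 ± 0.56 SE, adjusted p = 3.57e-07). Without mutant male 2, the highest mutant, the difference was −6.89 (adjusted p = 4.09e-08). Cyp2e1, the pericentral ethanol-oxidising P450, was at 2587 to 3705 CPM (median 3044) in mutants, 4156 to 6241 CPM in P14 wild-type cells and 6982 to 8689.6 CPM in adults. Its 3 groups did not overlap either, and the mutants were the lowest (log2 difference −1.30 ± 0.17 SE, adjusted p = 5.96e-06 against adults, −0.56 ± 0.17 (log2, SE, adjusted p = 0.0225) against P14 wild-type cells).

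Genes of transport, hormone reception and transcription were among them. Slco1b2, a bile acid and drug uptake transporter, was at 355 to 586 CPM (median 479) against 1385 to 2062 CPM in adults (log2 difference −1.91 ± 0.23 SE, adjusted p = 1.74e-06). P14 wild-type cells had 531 to 944 CPM of Slco1b2. Ghr, the growth hormone receptor, was at 220.1 to 301 CPM (median 264) against 777 and 796 CPM in the adult males and 615 and 653 CPM in the adult females (log2 difference −1.41 ± 0.17 SE, adjusted p = 1.89e-06). P14 wild-type cells had 242 to 472 CPM of Ghr. Egfr, the epidermal growth factor receptor, was at 67.0 to 489 CPM (median 98.7) against 412 to 644 CPM (log2 difference −1.59 ± 0.36 SE, adjusted p = 0.00101). P14 wild-type cells had 202 to 290 CPM of Egfr, above every mutant but male 2. Mutant male 2, at 489 CPM, was within the adult range of Egfr, and without it the difference was −2.55 (adjusted p = 6.31e-06). Nr1h4, the bile acid receptor FXR, was at 43.2 to 97.9 CPM (median 66.0) against 144 to 205 CPM (log2 difference −1.25 ± 0.16 SE, adjusted p = 4.91e-06). Foxa1, a pioneer factor of liver chromatin, was at 4.10 to 8.54 CPM (median 7.69) against 13.7 to 23.4 CPM (log2 difference −1.51 ± 0.22 SE, adjusted p = 1.68e-05). P14 wild-type cells had 77.6 to 92.0 CPM of Nr1h4 and 7.45 to 10.5 CPM of Foxa1, overlapping the mutants. For Ghr, Nr1h4 and Foxa1 all 7 mutants were below all 4 adults; groups that did not overlap in this direction made up 17.3% of all genes tested, and in the opposite direction 19.7%. Of 25 hepatocyte transcription factors 10 were called lower and 4 higher, where 25.2% and 31.2% of all genes were. The number called lower was not stable, and it fell most without adult female 2. Ehhadh, of peroxisomal fatty acid oxidation, was at 37.2% (log2 difference −1.42 ± 0.19 SE, adjusted p = 5.86e-06). Tdo2, of tryptophan breakdown, was at 30.6% (log2 difference −1.67 ± 0.25 SE, adjusted p = 2.49e-05). The liver glycogen synthase Gys2 was at 46.8% (log2 difference −1.06 ± 0.24 SE, adjusted p = 0.0012). P14 wild-type cells had 151 to 211 CPM of Ehhadh, 491 to 780 CPM of Tdo2 and 119 to 166 CPM of Gys2. Each range overlapped that of the mutants.

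Of 20 pericentral genes 7 were called higher and 8 lower, and of 20 periportal genes 5 higher and 6 lower, where 31.2% and 25.2% of all genes were. Glul, glutamine synthetase of the innermost pericentral cells, was at 107 to 357 CPM (median 259) against 204 to 285 CPM (log2 difference −0.12, 95% interval −0.77 to 0.54), although its interval was wider than 2-fold without mutant male 2. Rhbg, an ammonium transporter of the same zone, was higher than in adults, at 11.8 to 32.8 CPM (median 23.7) against 2.72 to 3.18 CPM (log2 difference 2.97 ± 0.33 SE, adjusted p = 6.92e-07). Slc13a3, a carboxylate transporter, was higher too, with a difference of 4.25 ± 0.39 (log2, SE, adjusted p = 8.06e-08) and with 134 to 237 CPM in P14 wild-type cells. Among periportal genes Cdh1, E-cadherin, was higher by 1.28 ± 0.26 (log2, SE, adjusted p = 0.000506) and Cyp2f2 and Pigr were lower, as given above.

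Where adult males and females differ, which adult sex the P14 mutants resembled depended on the gene. Of 32 tested genes listed as female-biased 15 were called higher and 7 lower than in adults (median 0.85), where 31.2% and 25.2% of all genes were. With all libraries weighted equally it was 4 and 12 of the listed genes. In 91 genes the difference from adults was more positive in males (0.674% of the genes tested) and in 49 more negative (0.363%). Cyp2b9, a P450 of juvenile and adult female liver, was at 487 and 249 CPM in the mutant males and 475, 471, 417, 267 and 356 CPM in the mutant females. The adults had 1.53 and 0.694 CPM in males and 813 and 664 CPM in females, and the mutant males were above the adult males by 8.36 ± 0.56 (log2, SE, adjusted p = 1.8e-08), or by 9.07 without adult male 1. The mutant females differed from the adult females by −0.90 ± 0.31 (log2, SE, adjusted p = 0.0256). The female difference passed the threshold narrowly and was lost without either adult female or without mutant females 4 or 5. Sult2a1 and Sult2a2, sulfotransferases of steroids and bile acids and close copies of each other, were at 294 to 696 CPM (median 435) and 104 to 160.1 CPM (median 132) in mutants. Adult females had 194 and 274 CPM and 201 and 261 CPM of the pair and adult males at most 0.426 CPM of either. Slc22a27, an organic anion transporter, was at 26.4 to 55.04 CPM (median 44.9) in mutants, 36.6 and 43.2 CPM in adult females and 0.0851 and 0.260 CPM in adult males. The long noncoding RNA gene 9030619P08Rik had the same arrangement, with 26.9 to 44.3 CPM (median 36.5) in mutants against 3.58 and 3.55 CPM in the adult males and 43.1 and 35.8 CPM in the adult females. P14 wild-type cells carried all 5 of these at 44.7 CPM or more in every library, so both genotypes expressed them at P14.

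Cyp17a1, a steroid hydroxylase, was different in that P14 wild-type cells had 6.45 to 20.6 CPM and the mutants 111 to 346 CPM (median 163). The mutants were thus around or above the level of adult females (145 and 135 CPM) and above adult males (10.5 and 8.24 CPM) by 4.51 ± 0.57 (log2, SE, adjusted p = 1.47e-05). They were above P14 wild-type cells by 4.08 ± 0.36 (log2, SE, adjusted p = 1.74e-07). Hamp2, the hepcidin copy of adult females, was at 52.8 and 109 CPM in the mutant males and 37.7, 24.9, 39.3, 11.4 and 26.4 CPM in the mutant females against 30.0 and 59.5 CPM in the adult males and 475 and 405 CPM in the adult females. One mutant male was within the adult male range and the other above it, and mutant females differed from adult females by −3.98 ± 0.40 (log2, SE, adjusted p = 6.82e-07). P14 wild-type cells had 0.352 to 1.44 CPM. Not all female genes were on: Slc22a26, a neighbour and relative of Slc22a27, was at 6.03 to 46.5 CPM (median 16.1) in mutants. It differed by −4.67 ± 0.42 (log2, SE, adjusted p = 1.95e-07) from the 395 and 325 CPM of adult females. It was above the 0.596 and 0.954 CPM of adult males by 5.27 ± 0.72 (log2, SE, adjusted p = 3.32e-05), and by 4.17 (adjusted p = 0.000465) without mutant male 2. Cyp2a4, which has a near-identical copy, was at 2.49 to 12.8 CPM in 6 mutants, 87.7 CPM in mutant male 2 and 1509 and 1093 CPM in adult females (log2 difference −7.71 ± 0.81 SE, adjusted p = 1.24e-06 in females). In males the difference was 3.12 ± 1.02 (log2, SE, adjusted p = 0.0237), but −0.77 (adjusted p = 0.618) without mutant male 2.

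**Figure D5:**
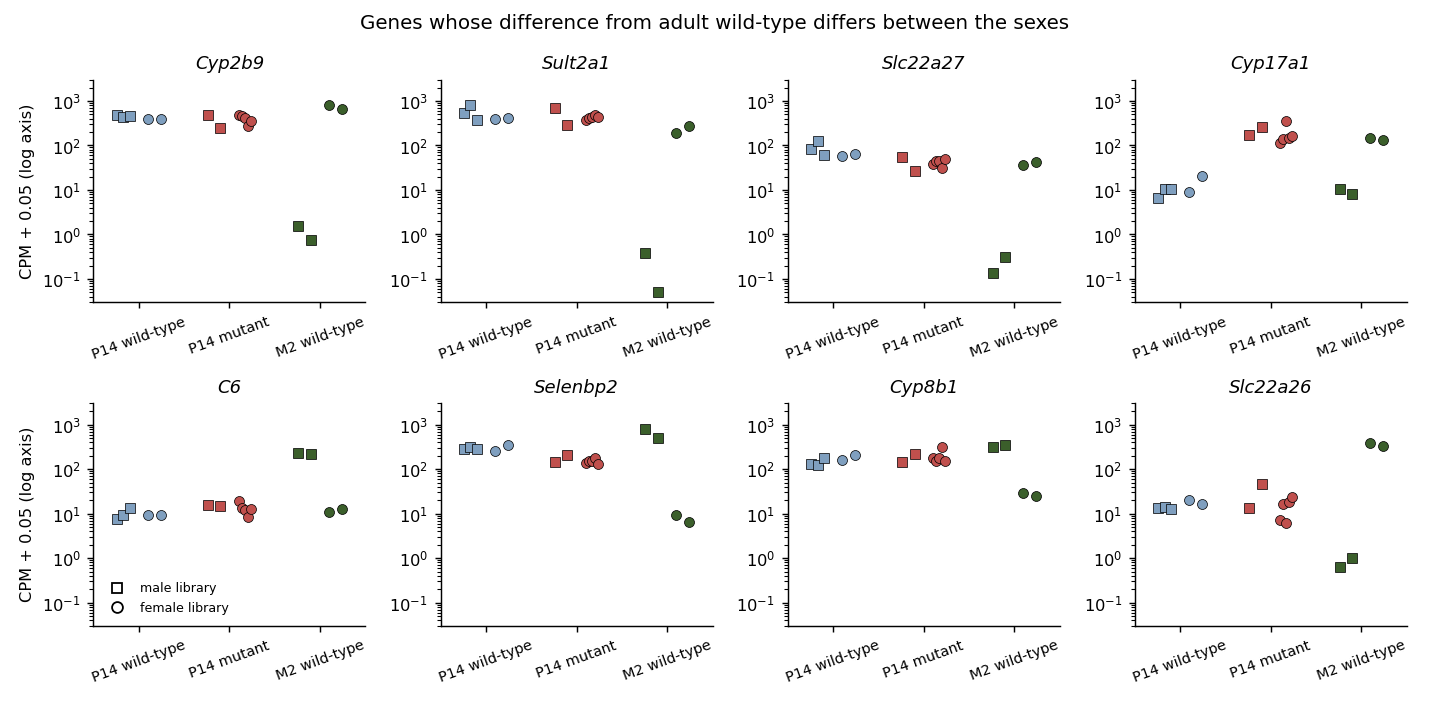
CPM + 0.05 on a log axis for 8 genes with a difference from adults that differs between the sexes, in each library (squares male, circles female). Mutant squares and circles lie closer together than adult squares and circles; Cyp2b9, Sult2a1, Slc22a27 and Cyp17a1 mutants are near the adult females, C6 mutants near the adult females at a low level, Selenbp2 and Cyp8b1 mutants nearer to the adult males, and Slc22a26 mutants between the sexes.

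Genes of adult males ranged in mutants from near 0 to a level not called different from that of adult males. C6, a complement component, was at 8.55 to 19.2 CPM (median 13.5) in mutants, near adult females (10.99 and 12.5 CPM) and far below adult males (233 and 220.1 CPM; −3.86 ± 0.34 (log2, SE, adjusted p = 2.39e-07) in males). Alas2, the aminolevulinate synthase of red blood cells, was arranged likewise, with 10.5 to 19.6 CPM (median 14.5) against 115 and 124 CPM in the adult males and 9.73 and 10.3 CPM in the adult females. Selenbp2, a selenium-binding protein, was at 129 to 212 CPM (median 149). It differed by −1.87 ± 0.38 (log2, SE, adjusted p = 0.00115) from adult males and was above adult females (9.40 and 6.49 CPM) by 4.23 ± 0.41 (log2, SE, adjusted p = 4.25e-07). Cyp8b1, the hydroxylase that directs bile acid synthesis to cholic acid, was at 149 to 317 CPM (median 179.6). It was above adult females (29.0 and 24.3 CPM) by 2.88 ± 0.34 (log2, SE, adjusted p = 5.56e-06). Its difference from adult males was not called (log2 difference −0.87 ± 0.34 SE, adjusted p = 0.0561), but the interval reached beyond 2-fold lower. Serpina1e, an antitrypsin of males that shares sequence with its neighbours, was at 40.3 to 372 CPM (median 121) against 10711 and 9801 CPM in the adult males and 149.5 and 87.1 CPM in the adult females. Cyp4a12a, a male P450, reached 1.19 CPM at most in mutants and was at 368 and 353 CPM in adult males. P14 wild-type cells had 253 to 341 CPM of Selenbp2, above every mutant. They had 288 to 499 CPM of Serpina1e, above every mutant but male 2. Their ranges of C6 (7.54 to 13.2 CPM), Alas2 (17.5 to 28.5 CPM) and Cyp8b1 (122 to 213 CPM) overlapped those of the mutants, and Cyp4a12a reached 0.0638 CPM at most.

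Fetal and juvenile genes were still on in P14 mutants. Of the 25 tested 7 were called higher and 3 lower than in P14 wild-type cells, where 11.8% and 6.89% of all genes were. Igf2, the fetal growth factor, was at 641 and 74.9 CPM in the mutant males and 1066, 1212, 40.5, 527 and 629 CPM in the mutant females. The adults had 0 and 0 CPM in males and 0.265 and 0.128 CPM in females, and P14 wild-type cells 328 to 1156 CPM. Mutant male 2 and mutant female 3 had the lowest Igf2 of all P14 libraries. H19, the noncoding RNA of the same imprinted locus, was at 1844 to 8082 CPM (median 6146) against 0.0867 to 0.993 CPM in adults, lowest in the same 2 mutants (1866 and 1844 CPM). Gpc3, a cell surface glypican, was at 40.3 to 90.9 CPM (median 78.6) against 0.0662 to 0.426 CPM (log2 difference 8.34 ± 0.32 SE, adjusted p = 9.99e-13). P14 wild-type cells had 71.1 to 106 CPM of Gpc3. Igf2bp3, a fetal RNA-binding protein, was at 11.7 to 23.9 CPM (median 16.2) in mutants, 0.340 and 1.65 CPM in the adult males and 0 and 0 CPM in the adult females and 19.2 to 31.0 CPM in P14 wild-type cells. Afp, fetal albumin's relative, behaved differently: the mutants had 2.49 to 9.02 CPM (median 3.93), above the adults at 0.321 to 0.867 CPM (log2 difference 3.05 ± 0.52 SE, adjusted p = 8.6e-05). They were far below P14 wild-type cells at 77.3 to 261 CPM (log2 difference −4.93 ± 0.39 SE, adjusted p = 4.71e-08). Ahsg, which makes the plasma protein fetuin-A, was also between the 2 wild-type ages, at 16983 to 23598 CPM (median 21751) against 7004 to 9660.0 CPM in adults and 36843 to 53282 CPM in P14 wild-type cells. Igfbp2, a juvenile growth factor binding protein, was at 617 to 1372 CPM (median 938) with 235 to 286 CPM in adults and 1313 to 2258 CPM in P14 wild-type cells (log2 difference 1.90 ± 0.21 SE, adjusted p = 8.58e-07 against adults).

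Cell cycle genes were higher than in adults, as they were in P14 wild-type cells. Aurkb, a mitotic kinase, was at 1.05 to 9.59 CPM (median 3.50) against 0.0851 to 0.385 CPM (log2 difference 3.91 ± 0.63 SE, adjusted p = 3.78e-05). Cdc20, an activator of mitotic exit, was at 0.761 to 10.9 CPM (median 5.56) against 0.0867 to 1.19 CPM (log2 difference 3.54 ± 0.76 SE, adjusted p = 0.000629). Mutant female 3 was the lowest mutant for both. The differences were 4.57 for Aurkb without adult male 2 and 4.29 for Cdc20 without adult male 1. The median difference from adults over 32 cell cycle genes was 2.35 in mutants and 3.10 in P14 wild-type cells. Against P14 wild-type cells 9 of the 32 were called lower in mutants and 1 higher, where 6.89% and 11.8% of all genes were (median −0.90). P14 wild-type cells had 5.58 to 11.2 CPM of Aurkb and 7.28 to 15.7 CPM of Cdc20, ranges that overlapped those of the mutants. The CDK inhibitors Cdkn1a and Cdkn1c were higher than in adults too, by 3.60 ± 0.48 (log2, SE, adjusted p = 5.95e-06) and 3.33 ± 0.31 (log2, SE, adjusted p = 8.46e-08), and Ccng1, a target of p53, was lower, with a difference of −1.47 ± 0.18 (log2, SE, adjusted p = 1.77e-06).

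Some genes were higher in the mutants than at either wild-type age. Pax3 and Pax6, developmental transcription factors of neural crest, muscle, eye and brain, were at 1.58 to 4.91 CPM (median 2.03) and 0.981 to 5.06 CPM (median 2.32) in mutants and had no read in any P14 or M2 wild-type library. Against the floor of 3 counts over the adult libraries they were at least 42.7-fold and 43.0-fold higher. Zic1, of the neural tube, was at 1.26 to 4.51 CPM (median 1.64) and at least 36.8-fold higher, with a highest P14 wild-type value of 0.0587 CPM. Of 101 homeobox and developmental regulators 57 passed the filter on low counts. Of these 40 had no read in any adult library and so passed through other groups alone; no count over them is read as a result. Bex1 was at 4.99 to 15.3 CPM (median 7.19) in mutants against 0.908 to 2.03 CPM in P14 wild-type cells and 0 in adults, at least 153-fold higher than the adults. Its difference from P14 wild-type cells was 2.39 ± 0.31 (log2, SE, adjusted p = 2.49e-05). Sult2a6, of the Sult2a copies, was at 12.1 to 48.2 CPM (median 21.3) in mutants, 4.91 to 12.3 CPM in P14 wild-type cells and 0 in adults, at least 424-fold higher. The lowest mutant was within the P14 wild-type range, and the difference between these was 1.85 ± 0.38 (log2, SE, adjusted p = 0.00214). Cdhr2, a cadherin of epithelial microvilli, was at 3.68 to 15.2 CPM (median 11.3) against 0 to 0.385 CPM in adults and 0.169 to 1.12 CPM in P14 wild-type cells.

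Acute phase genes were divided. Lbp, the lipopolysaccharide-binding protein, was at 372 to 729.7 CPM (median 601) against 63.1 to 141 CPM in adults (log2 difference 2.60 ± 0.23 SE, adjusted p = 5.78e-08), and P14 wild-type cells had 209.7 to 283 CPM. Lcn2, an iron-scavenging lipocalin, was at 133 and 973 CPM in the mutant males and 63.7, 102, 131, 154 and 106 CPM in the mutant females against 3.06 and 2.17 CPM in the adult males and 27.1 and 35.0 CPM in the adult females. It was higher by 7.72 ± 0.83 (log2, SE, adjusted p = 2.65e-06) in males and 1.84 ± 0.56 (log2, SE, adjusted p = 0.0138) in females, and without mutant male 2 the male difference was 5.72 (adjusted p = 1.61e-06). Orm1, given above, was lower, and of the 23 genes 12 were called higher and 3 lower, where 31.2% and 25.2% of all genes were. The median difference was 0.84 (log2), or −0.02 without mutant male 2.

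Many markers of other liver and blood cells were higher in mutants than in adults, where 31.2% of all genes were. The 13 granulocyte markers summed to 27.9 to 136 CPM in mutants, 8.44 to 18.9 CPM in P14 wild-type cells and 0.954 to 1.39 CPM in adults, and 12 were called higher, although 5 of the 13 had no read in any adult library and could only have come out higher. The granule enzyme Mpo was at 2.65 to 19.6 CPM (median 5.58) in mutants and 0 in all 4 adults. Kupffer cell and macrophage markers summed to 370 to 657 CPM in mutants and 181 to 238 CPM in adults (11 of 13 called higher). Endothelial markers summed to 426 to 1075 CPM and 223 to 343 CPM (13 of 14), and those of stellate cells and fibroblasts to 221 to 703 CPM and 134 to 216 CPM (10 of 15). In P14 wild-type cells the macrophage, endothelial and stellate sums were 307 to 415, 394 to 609 and 316 to 525 CPM. These were above the adult sums and overlapped the mutant sums. Marco, a macrophage receptor, was at 15.4 to 38.9 CPM (median 22.2) against 1.87 to 2.44 CPM (log2 difference 3.57 ± 0.38 SE, adjusted p = 4.94e-07). Stab2, a sinusoidal endothelial receptor, was at 59.3 to 239 CPM (median 105) against 31.8 to 55.9 CPM (log2 difference 1.68 ± 0.42 SE, adjusted p = 0.00245). Col3a1, a fibroblast collagen, was at 14.1 to 80.9 CPM (median 23.1) against 3.40 to 5.81 CPM (log2 difference 3.27 ± 0.57 SE, adjusted p = 0.00011), and without mutant male 1 its difference was 2.67. P14 wild-type cells had 16.5 to 27.7 CPM of Marco, 69.1 to 167 CPM of Stab2 and 38.0 to 87.7 CPM of Col3a1. Lymphocyte markers summed to 17.6 to 39.8 CPM in mutants and 7.88 to 13.7 CPM in adults, with 6 of 14 called higher, but only 3 without mutant male 1. Cholangiocyte markers summed to 21.2 to 69.8 CPM and 4.85 to 19.1 CPM (4 of 6 called higher). P14 wild-type cells had 12.5 to 27.1 CPM of lymphocyte and 43.5 to 70.2 CPM of cholangiocyte markers. Erythroid markers overlapped between mutants and adults, with sums of 83.7 to 284 CPM and 93.9 to 173 CPM, and P14 wild-type cells had 194 to 265 CPM. Of the 7 tested 4 were called higher and 2, Alas2 and Car1, lower, and the globin genes of that list had no read in any library. Many of these markers were higher than in adults, as were many of the fetal, cell cycle and acute phase genes above. Whether the markers vary with those genes between libraries was not tested, and neither was their part in those results. In such bulk libraries fewer cells of a type and less RNA per cell cannot be told apart.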

How the data were processed

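Polyadenylated RNA of hepatocytes was read as 75 bp single-end, strand-specific reads, per the labels' protocols. The deposited values are whole counts per gene; the submitters' processing notes name STAR 2.4.2a, HTSeq 0.6.1p1, DESeq2 1.14.1, bedtools and the build mm9. Totals of the 11 libraries compared were 12427095 to 17602199 counts, so low levels carry counting error. Labels call replicates biological and do not tie them to animals, so p-values measure the spread between libraries. Counts of all 22 libraries were fitted with edgeR 4.0.16 (TMM, 8 groups, quasi-likelihood, Benjamini-Hochberg) over the 13493 of 24422 genes kept by filterByExpr, and the sexes were averaged. The script was tested on simulated data. CPM are counts scaled by the TMM-adjusted library totals, with no correction for gene length, so levels of different genes are not compared. Alternatives were DESeq2 1.42.0, limma 3.58.1 voom, no filter, other scalings, a block and leaving out each library. Members, lists and rules were chosen with earlier results of these data known. Named genes were taken by rule: the 4 PRC2 core genes, the 8 largest called changes per direction with a mean log2 CPM of 2 or more and no overlap, the off genes with the highest adult CPM, up to 3 called members per direction and up to 2 at the adult level from each list, and 5 sex differences per direction. Afp, Cyp17a1, Cyp3a11, Gm3704, Hsd3b5, Keg1, Mup17, Slc10a2 and Ugt2b1 lie outside it and were chosen after their values were seen.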

Additional observations from a re-analysis of the deposited data

Results flagged for a closer look

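Among the 5 P14 mutant females, 106 values were examined for a library far from the other 4, and 14 had one by Dixon's test. Chance flags about 1 in 20 separate values, but these values are not separate, since the Mup sum contains the Mup genes. The number of flags is therefore not set against chance. Mutant female 3 was the highest of the 5 for Mup3 (5.56 CPM), Mup16 (0.0586 CPM), Mup20 (1.70 CPM), Mup10 (0.234 CPM), Serpina4-ps1 (0.0586 CPM), Slc27a5 (1166 CPM), Cyp17a1 (346 CPM) and the Mup sum (8.78 CPM), and the lowest for Serpina1e (40.3 CPM). For Mup16 and Serpina4-ps1 the flag rests on 1 count with 0 in the other 4 females, which the test always flags. Mutant female 4 was the highest for Cyp8b1 (317 CPM) and Bex1 (15.3 CPM), and mutant female 5 for Scd1 (1216 CPM). Mutant female 1 was the lowest for Eed (6.63 CPM), and mutant female 2 stood apart for Ccng1 (18.1 CPM).

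For 20 named genes the difference of mutants from adults differed between the sexes by the interaction term. Its value, male minus female on the log2 scale, was positive for Hamp2 (4.83), Pigr (1.97), Cyp2b9 (9.25), Sult2a1 (10.55), Sult2a2 (9.998), Slc22a27 (7.74), Slc22a26 (9.95), 9030619P08Rik (3.81), Cyp2a4 (10.83), Cyp17a1 (4.13) and Lcn2 (5.88). It was negative for Mup7 (−10.06), Cyp4a12a (−7.93), C6 (−4.04), Selenbp2 (−6.10), Alas2 (−3.86), Cyp8b1 (−3.74), Rassf3 (−2.28), Igf2bp3 (−6.98) and Serpina1e (−5.24). Without mutant male 2 the value was 6.94 for Cyp2a4, 3.87 for Lcn2, −14.34 for Mup7 and −14.28 for Cyp4a12a. It was then not called for Mup7 (adjusted p = 0.0869), Pigr (1.34, adjusted p = 0.364) and Igf2bp3 (−6.50, adjusted p = 0.0961).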

How the results depend on the processing

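Of 2404 pairs of a named-gene result and an alternative, 2372 kept their call or their lack of one, 23 lost it, 8 gained it and 1 called value reversed: Cyp2a4 in males, 3.12, was −0.77 (log2) without mutant male 2 and 4.05 without mutant male 1. In 16 of the 2372 a value that was not called changed sign, among them Sult3a1 in males from 2.27 to −2.58 without mutant male 2. Counts of sex differences were 141 and 88 with DESeq2, and 28 more negative ones with only the 11 libraries. Off genes numbered 3 in both sexes, 22 in males only and 14 in females only with under 1 CPM in mutants, 8 in males with at least 10 CPM in adults, and 4 in both sexes by the mutant mean, a rule added after seeing the data. The distance difference of 0.0808 was −0.0583 among abundant genes, 0.0816 with DESeq2 size factors (exact permutation p = 0.0505), 0.00603 as 1 minus Spearman's correlation (p = 0.346), and 0.0679 without developmental regulators and other cell types (p = 0.0833), also added after seeing the data. Leaving out 1 library gave 0.0551 to 0.1000 for it. The cause of these changes was not tested.

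Leaving out 1 library, where a lone library is taken to vary like the other groups, gave 3741 to 4343 genes higher and 2727 to 3252 lower, 1284 to 2811 and 1011 to 1948 in males, 1208 to 3269 and 1173 to 2822 in females, and 39 to 116 and 15 to 50 sex differences. The lowest male counts came without adult male 1 and the lowest female counts without adult female 2. List members at the adult level numbered 147 to 167 (166 with all libraries), and off genes 1 to 7 in both sexes, 13 to 29 in males and 3 to 11 in females. Deviations of libraries from their group means correlated at −0.076 to 0.067 across replicate numbers shared. In groups of 2 the deviations mirror each other, so the male pairs give only 1 value. Whether replicate numbers pair the libraries was therefore not settled. A replicate block gave 4038 higher and 3291 lower, 2487 and 2101 in males, 2793 and 2270 in females, 81 and 38 sex differences and 163 members at the adult level. Depth limits the lowest values: levels under 0.1 CPM rest on 1 or 2 counts.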
